A study of Homo sapiens with 12 samples.

Results

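Transcripts of the proteasome were followed in 12 RNA-seq libraries of human motor neuron cultures. The set holds every gene whose symbol is PSMA, PSMB, PSMC, PSMD, PSME, PSMF or PSMG followed by a number, plus POMP, ADRM1 and SEM1, which gave 51 of the 28278 genes in the table. By role these are 8 alpha and 8 beta subunits of the core, 3 immunoproteasome subunits, 6 ATPases and 13 other subunits of the cap, 8 assembly chaperones, and 5 activators or inhibitors. The cells came from WA09-Islet1-GFP, a single human embryonic stem cell line that makes GFP together with Islet1, a transcription factor of motor neurons. Differentiated cells that had been frozen were thawed and then received the organochlorine pesticide cis-chlordane or the vehicle DMSO for 16 hours, after which they were sorted by FACS on GFP. The 4 groups are therefore control GFP-positive, treated GFP-positive, control GFP-negative and treated GFP-negative cells, with 3 libraries each. The labels give the dose as 10 µM, the methods of the study give a higher one, and the titles of the treated libraries also contain the word untreated, so treatment was read from the rest of the title.

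The 26S proteasome is the chamber in which cells degrade proteins tagged with ubiquitin. Its 20S core is a stack of rings of alpha subunits, which form the gate, and beta subunits, of which PSMB5, PSMB6 and PSMB7 carry the catalytic sites. The 19S cap binds ubiquitin chains, removes them and threads the substrate into the core with a ring of ATPases. In immune cells or under interferon the catalytic subunits can be exchanged for PSMB8, PSMB9 and PSMB10. POMP and the PSMG proteins help to build the core, whereas PSMD5, PSMD9 and PSMD10 help to build the ATPase ring. Neurons are long-lived cells that depend on this route of protein clearance, and many cells raise the transcription of proteasome genes through the factor NFE2L1 when it is impaired.

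Between 23414935 and 38347050 reads were counted per library, with a median of 31553596, and 3 counts corresponded to 0.0782 to 0.128 CPM, the read count scaled to library size. Levels are given below as CPM after TMM scaling. The labels call the 3 libraries of a group biological replicates, and p-values measure only the spread between these libraries. Of the 8 motor neuron markers examined, 8 were higher in control GFP-positive than in control GFP-negative cells, with summed levels of 2273 to 2855 CPM against 384 to 423 CPM. After treatment the same sum was 768 to 1133 CPM in GFP-positive and 148 to 181 CPM in GFP-negative cells. In GFP-positive cells 8 of 8 markers fell. ISL1, the gene of Islet1, was at 66.1, 62.4 and 68.6 CPM in control GFP-positive libraries. In treated GFP-positive libraries ISL1 was at 8.01, 15.3 and 12.6 CPM. Whether the sort on GFP selected the same cells in control and treated cultures was not tested. The 6 markers of cycling cells summed to 64.2 to 96.2 CPM in control GFP-positive and 529 to 665 CPM in control GFP-negative cells, and to 33.4 to 38.01 CPM and 161 to 217 CPM after treatment. The 8 progenitor markers summed to 2872 to 3247 CPM in control GFP-positive and 5919 to 7870 CPM in control GFP-negative cells. After treatment these sums were 2353 to 3169 CPM and 7230 to 8284 CPM. The 6 mesenchymal markers summed to 260 to 326 CPM and 760 to 885 CPM in the same control groups. After treatment they summed to 50.2 to 82.0 CPM and 467 to 761 CPM. Among the 6 markers of blood and microglia, control GFP-negative library 3 stood apart with 4061 CPM, of which 3520 CPM came from HBB, against 5.14 and 7.39 CPM in the other libraries of its group, and AIF1 was at 0 in all 12 libraries. Treated GFP-negative libraries 1 and 3 held 167 and 137 CPM of these markers. Their part in the results for proteasome genes was not tested, and values without each of these libraries are given where they differ. In bulk samples fewer cells of a type and less RNA per cell cannot be told apart.

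The proteasome transcripts were readily detected. Of the 51 genes 47 passed the filter on low counts in each comparison. Per kilobase of the canonical transcript, the highest means in control GFP-positive cells were those of PSMA7 at 288 CPM per kilobase, PSMB7 at 272 and PSMB6 at 262, whereas the assembly chaperones lay between 0.481 for PSMD5 and 42.3 for POMP. PSMD5 reached no more than 2.12 CPM in any library. PSMA8, an alpha subunit of the testis, and PSMB11, a beta subunit of the thymus, had 0 counts in all 12 libraries, which allows no more than the level given above for 3 counts.

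The immunoproteasome could be followed only through PSMB10. PSMB8 had 7 counts in control GFP-negative library 3, 1 count in treated GFP-negative library 1 and 0 in the other 10 libraries. PSMB9 had 10 counts in control GFP-negative library 2 and 0 in the other 11. All of the 100-base windows of their exons (100%) also occur on alternate contigs of hg38, and how the counting treated reads with several positions is not given in the sources used here, so these values are no measure of absence. The same held for PSMB3, a structural beta subunit, which had only 15 to 156 counts per library and is treated as uncertain below. In contrast, 47 of the 51 genes had fewer than 10% of such windows repeated anywhere, PSMB10 among them with 0%, and PSMC1 had 17.4% of its windows elsewhere on the primary chromosomes.

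**Figure D1:**
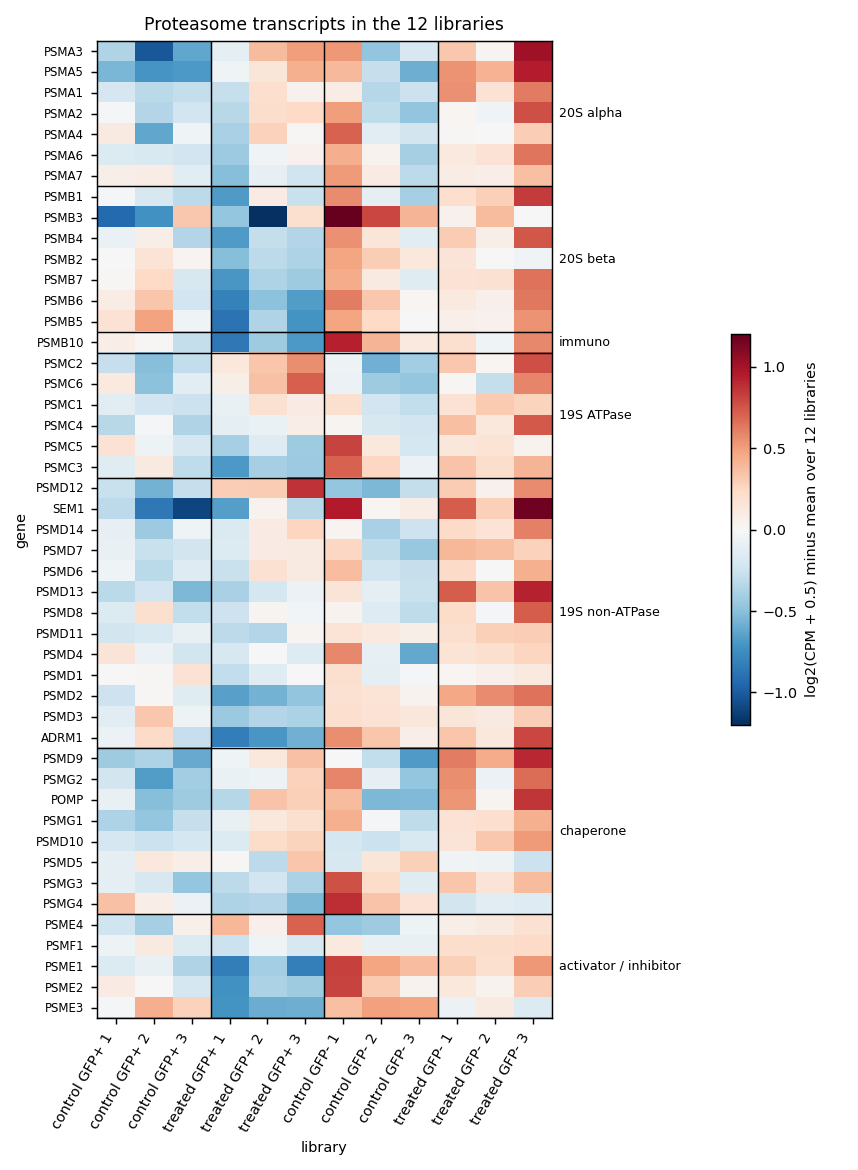
Level of the 47 tested proteasome genes in the 12 libraries, as log2(CPM + 0.5) minus the gene's mean over the libraries, grouped by class and ordered by the treatment difference in GFP-positive cells. Control GFP-negative library 1 (median 0.43) and treated GFP-negative library 3 (median 0.54) were above the mean for 41 and 42 of the 47 genes, while PSMB2, PSMB5, PSMB6 and PSMB7 were lower in the treated GFP-positive libraries than in all others.

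The overall level of the set varied between libraries of 1 group. The median difference of the 47 genes from their mean over all libraries was 0.43 in control GFP-negative library 1, but -0.08 and -0.19 in libraries 2 and 3 of that group. Among treated GFP-negative cells library 3 was at 0.54 and the other libraries at 0.19 and 0.12. GFP-positive libraries were closer together, at -0.11, -0.18 and -0.23 in controls and at -0.33, -0.06 and -0.00 after treatment.

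In GFP-positive cells, the fraction higher in motor neuron markers, proteasome genes were called in both directions after treatment, at shares near those of all genes. At an adjusted p under 0.05 (edgeR's quasi-likelihood test, Benjamini-Hochberg adjustment), 12 genes were higher, 11 were lower and 24 were not called. Of all 15333 genes tested, 26.5% were called higher and 24.4% lower. The calls included 5 of 8 assembly chaperones as higher and 4 of 7 beta subunits as lower. The median log2 fold change of the 47 genes was 0.06 and that of all genes 0.03. Control and treated values did not overlap for 24 of the 47 genes (51.1%), against 57.5% of all genes. None of the genes reached the 2-fold minimum used by the study for a differentially expressed gene (DEG), which 24% of all genes did; 27 had an unadjusted p under 0.05, and DESeq2 called 11 higher and 12 lower, with 0 DEGs.

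These counts depended on the scaling, the libraries in the fit and single libraries. Without TMM scaling, which moved the median of all genes from 0.03 to 0.14, 18 proteasome genes were higher and 5 lower. After removal of the trend with GC content 5 were higher and 7 lower, against 22.7% and 25% of all genes. With all 12 libraries in the fit 6 were higher and 11 lower. Without control GFP-positive library 2 the counts were 6 and 4, without control library 1 they were 11 and 6, and without treated library 1 they were 14 and 4. The calls of PSMA3, PSMA5, PSMD12 and PSMD9 as higher and of PSMB5, PSMB6 and PSME3 as lower were kept in all 15 other fits, which makes 7 of 23.

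**Figure D2:**
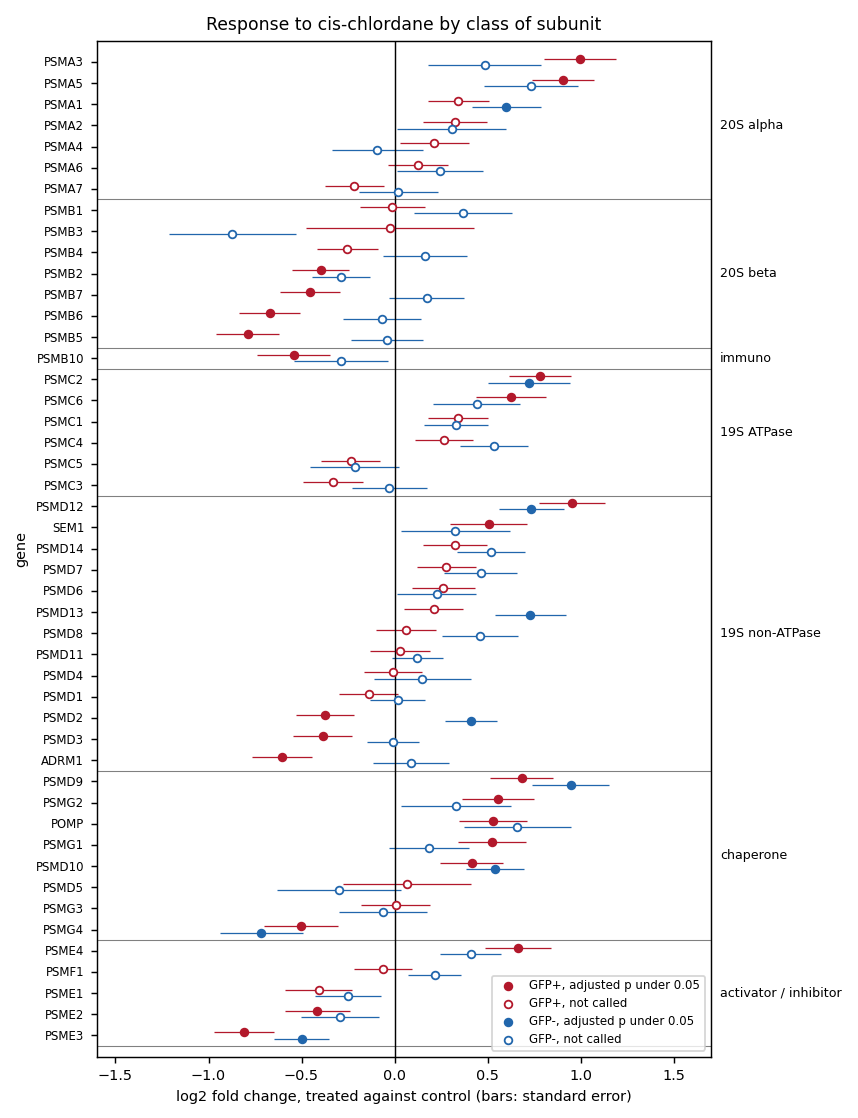
Log2 fold change of treated against control cells for the 47 tested genes in GFP-positive (red) and GFP-negative (blue) cells. Bars are standard errors, and filled points have an adjusted p under 0.05. In GFP-positive cells the 7 beta subunits lie between -0.79 and -0.01 and 5 of 8 assembly chaperones are called higher.

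All 7 tested beta subunits had a negative estimate in GFP-positive cells, with a median of -0.40, and 4 of them were called. The shared sign did not hold in each fit, and PSMB1 and the uncertain PSMB3 were near 0. The highest estimate of the class was 0.09 with library size alone and 0.07 after removal of the GC trend. In these fits 3 and 4 beta subunits were called lower. PSMB5, which cleaves after hydrophobic residues, was measured at 244, 302 and 209 CPM in the control and 117, 168 and 132 CPM in the treated libraries. Its log2 fold change was -0.79 ± 0.17 (SE), with an adjusted p of 2.08e-04 in edgeR. PSMB6, the subunit that cleaves after acidic residues, had 218, 258 and 174 CPM and, after treatment, 116, 145 and 128 CPM. Treated and control values were separated for both genes.

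PSMB7, which cleaves after basic residues, had 265, 309 and 229.8 CPM in controls and 162, 203 and 195 CPM in treated cells. The log2 fold changes of PSMB6 and PSMB7 were -0.67 ± 0.17 and -0.45 ± 0.16, with adjusted p of 9.76e-04 and 0.0181 in edgeR. The transcripts of the 3 constitutive catalytic subunits thus all fell. The structural subunit PSMB2 fell too, with a log2 fold change of -0.40 ± 0.15. At the other end PSMB1 had 159, 141 and 129.9 CPM in controls and 100.5, 173 and 134 CPM in treated libraries, which overlap. Neither PSMB1 (-0.01 ± 0.17) nor PSMB4 (-0.25 ± 0.16) was called. PSMB3 had 0.709, 0.898 and 2.40 CPM and 1.17, 0.430 and 2.15 CPM, too little for a statement.

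PSMB10, the immunoproteasome counterpart of PSMB7, was present at 25.8, 24.5 and 19.9 CPM in control and 13.2, 17.9 and 14.9 CPM in treated GFP-positive cells. Its log2 fold change of -0.54 ± 0.19 passed the test with an adjusted p of 0.0196 in edgeR, but it became -0.18 and was not called after removal of the GC trend. Of its canonical transcript 56.1% overlaps another annotated gene on the same strand, so some of its reads may not have been assigned to it. The share of PSMB10 in the sum of PSMB10 and PSMB7, both per length, was 8.12% ± 0.76 (SD, n = 3) in controls and 7.64% ± 0.51 in treated cells. The proportion of this exchangeable pair thus overlapped between the groups.

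The alpha ring went the other way in part. PSMA3 had 39.9, 25.2 and 33.2 CPM in control and 47.4, 66.8 and 72.9 CPM in treated libraries, and PSMA5 had 73.5, 65.8 and 66.7 CPM and 104, 119 and 145 CPM. Both are structural members of the ring that gates the core, and in both all treated values lay above all control values. Their log2 fold changes were 1.00 ± 0.19 and 0.90 ± 0.17, with adjusted p of 4.92e-05 and 2.51e-05 in edgeR. The other 5 tested alpha subunits were not called, and their estimates ran from -0.22 ± 0.16 for PSMA7 to 0.34 ± 0.16 for PSMA1. PSMA7, the lowest of the class, had 289, 293 and 249.8 CPM in controls and 193, 257 and 233 CPM after treatment. The median of the class was 0.33, 4 alpha subunits were called higher without TMM scaling, and after removal of the GC trend the median was -0.13 with PSMA3 and PSMA5 still called. PSMA1, PSMA2 and PSMA6 share 67%, 100% and 81.4% of their canonical transcripts with another annotated gene on the same strand.

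In the ATPase ring of the cap 2 of 6 genes rose and 0 fell. PSMC2 was at 63.7, 54.3 and 63.0 CPM in control and 84.8, 97.4 and 115 CPM in treated libraries. Its log2 fold change was 0.78 ± 0.17 with an adjusted p of 2.04e-04 in edgeR, but it was not called after removal of the GC trend. PSMC6 had 51.6, 33.7 and 43.5 CPM and 50.03, 60.7 and 78.6 CPM, which overlap. It passed the test with 0.62 ± 0.19, but had 0.03 and was not called after removal of the GC trend. PSMC3 had the lowest estimate, -0.33 ± 0.16, with 236, 282 and 212 CPM in controls and 162, 198 and 193 CPM in treated cells. Its values did not overlap between the groups, yet its adjusted p was 0.0818 in edgeR. The transcripts of this ring, whose subunits are present in equal number in the complex, thus had estimates on both sides of 0.

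The 13 other subunits of the cap were divided, with 2 called higher and 3 lower. PSMD12, a scaffold subunit of the lid, rose from 64.7, 52.5 and 64.5 CPM to 95.8, 96.4 and 143 CPM, by 0.95 ± 0.18 on the log2 scale with an adjusted p of 2.82e-05 in edgeR. SEM1, a small lid subunit that also serves in other complexes, rose by 0.51 ± 0.21 with overlapping values of 32.9, 22.4 and 18.8 CPM and 25.8, 42.2 and 32.4 CPM. The members that fell were the ubiquitin receptor ADRM1, the scaffold PSMD2 and the lid subunit PSMD3. Of the called genes of this class PSMD12 alone kept its call after removal of the GC trend.

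ADRM1, which also docks the deubiquitinase UCHL5, had 234, 289 and 203 CPM in controls and 138, 152 and 165 CPM in treated libraries. The groups did not overlap, and the log2 fold change was -0.60 ± 0.16 with an adjusted p of 0.0022 in edgeR. ADRM1 was not called after removal of the GC trend. PSMD4, another ubiquitin receptor, had 263, 225 and 203 CPM and 207, 236 and 213 CPM, and was not called (-0.01 ± 0.16). PSMD14, the deubiquitinase of the lid, had 63.5, 50.03 and 65.4 CPM and 60.3, 72.6 and 81.1 CPM and was not called (0.33 ± 0.17). PSMD2 and PSMD3 had log2 fold changes of -0.37 ± 0.15 and -0.39 ± 0.16, close to the threshold, with adjusted p of 0.0426 and 0.0413 in edgeR.

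Of the assembly chaperones 5 of 8 rose and 1 fell, with a median of 0.47, and 1 rose after removal of the GC trend. POMP, which matures the core, had 67.2, 49.7 and 52.8 CPM in controls and 56.3, 90.5 and 87.1 CPM in treated libraries. The groups overlap in treated library 1. Its log2 fold change of 0.53 ± 0.18 (adjusted p 0.0157 in edgeR) turned to -0.19 after removal of the GC trend, so no direction can be given.

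The partners PSMG1 and PSMG2, which start the alpha ring, were at 23.9, 22.4 and 25.7 CPM and 21.6, 15.7 and 18.8 CPM in controls. After treatment PSMG1 had 29.2, 34.0 and 35.6 CPM and PSMG2 23.8, 24.2 and 30.6 CPM, above all controls in each case. They rose by 0.52 ± 0.18 and 0.56 ± 0.19, and after removal of the GC trend neither was called. Neither member of the second pair of core chaperones was called higher. PSMG3 had 24.9, 23.5 and 19.5 CPM and 21.6, 22.9 and 20.6 CPM (0.01 ± 0.19, not called). PSMG4 fell from 18.6, 15.3 and 13.7 CPM to 11.1, 11.2 and 9.80 CPM, a log2 fold change of -0.50 ± 0.20 with an adjusted p of 0.0352 in edgeR. This call too was lost after removal of the GC trend.

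Among the chaperones of the ATPase ring PSMD9 had 52.8, 54.9 and 46.7 CPM in controls and 68.4, 77.6 and 90.8 CPM in treated libraries. It rose by 0.68 ± 0.17, with an adjusted p of 0.00101 in edgeR. PSMD9 was the chaperone whose rise stayed after removal of the GC trend (0.72). Of its canonical transcript 28.8% overlaps another annotated gene on the same strand. PSMD10, also known as gankyrin, had 52.1, 50.1 and 51.5 CPM and 53.5, 70.0 and 72.1 CPM. Its log2 fold change of 0.41 ± 0.17 became -0.02 after removal of the GC trend. PSMD5 had 1.42, 1.77 and 1.696 CPM and 1.59, 1.17 and 2.12 CPM and was not called (0.07 ± 0.34).

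Of the activators, which open the core in place of the cap, 1 rose and 2 fell. PSME3, the nuclear activator, had 171, 235 and 209 CPM in controls and 105, 115 and 115 CPM in treated libraries, far apart. Its log2 fold change of -0.81 ± 0.16 was the lowest of all 47 genes, with an adjusted p of 7.51e-05 in edgeR. PSME4, the activator with a role in chromatin and DNA repair, had 55.9, 49.9 and 68.6 CPM and 87.1, 68.8 and 108 CPM. It rose by 0.66 ± 0.18, with an adjusted p of 0.00225 in edgeR, but was not called after removal of the GC trend.

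The interferon-inducible pair PSME1 and PSME2 had control values of 41.8, 44.1 and 36.4 CPM and 58.4, 54.8 and 47.0 CPM. After treatment PSME1 was at 26.3, 35.3 and 26.5 CPM and PSME2 at 32.7, 41.7 and 40.3 CPM. Both lay below all controls. PSME2 passed the test with -0.41 ± 0.17 and an adjusted p of 0.0462, whereas PSME1 missed it with -0.41 ± 0.18 and 0.0577 in edgeR. The inhibitor PSMF1 had 188, 211 and 175 CPM and 163, 189 and 172 CPM and was not called (-0.06 ± 0.16).

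**Figure D3:**
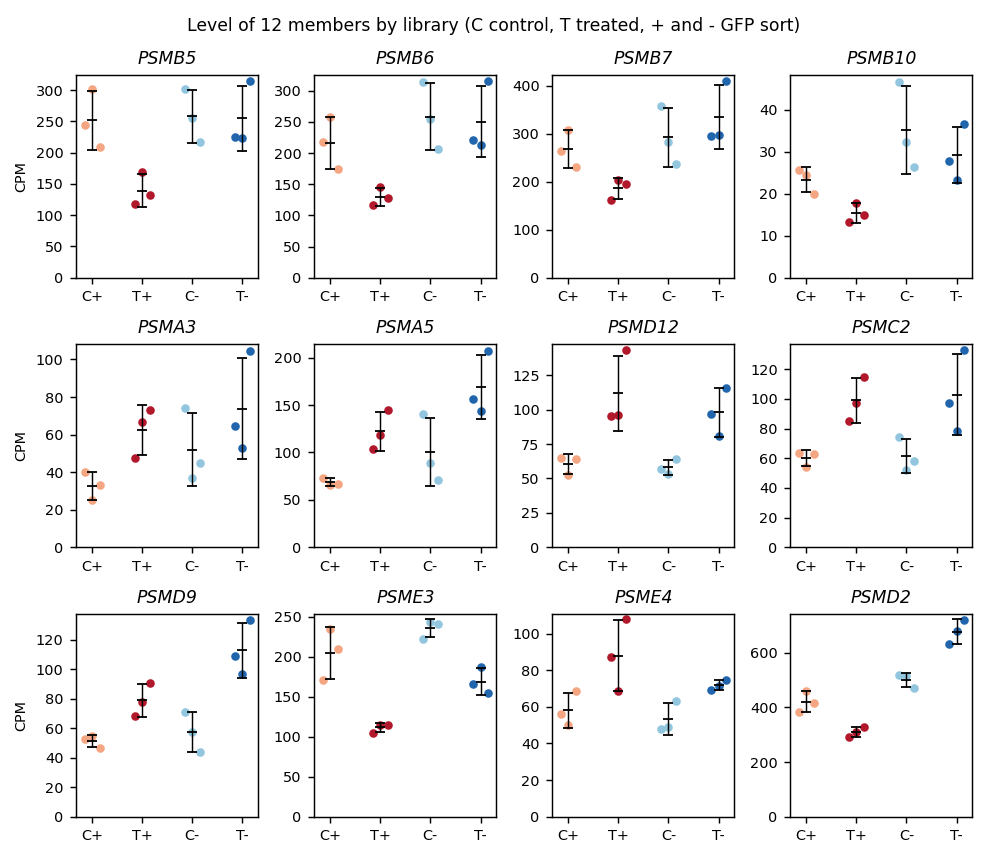
CPM of 12 proteasome genes in the 12 libraries, with the mean and SD of each group of 3 (C control, T treated, + and - for the GFP sort). Treated GFP-positive libraries lie below their controls for PSMB5, PSMB6, PSMB7, PSMB10, PSME3 and PSMD2, and in GFP-negative cells the treated libraries of PSMD2 lie above their controls.

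The direction of change in GFP-positive cells followed the base composition of the transcripts. Over the 47 genes, log2 fold change and GC content of the canonical transcript had a Spearman correlation of -0.74 and a Pearson correlation of -0.71, and over 14659 genes with a GC value -0.40 and -0.31. These are correlations across genes from the same 6 libraries, and genes are not independent replicates. The median GC content was 40.3% for the 12 genes that rose, 53.0% for the 11 that fell and 48.5% for the 24 not called. After the trend over all genes was removed in each library, the correlations for the proteasome genes were -0.24 and -0.18. PSMA3, PSMA5, PSMD12 and PSMD9 were then still higher and PSMB2, PSMB5, PSMB6, PSMB7, PSME2 and PSME3 still lower, with PSMC4 gained as higher and PSMD1 as lower. The median of the beta subunits was -0.48 after removal, with the same number called, and that of the chaperones 0.07 with 1 called. For treatment in GFP-negative cells the Spearman correlation with GC content was -0.50 over the 47 genes and -0.24 over all genes. Between sort fractions it was -0.26 in control and -0.63 in treated cells, against -0.08 and -0.26 over all genes. For the interaction it was -0.55, against -0.28. With transcript length it was 0.49 and 0.48 between control and treated sort fractions, against 0.22 and 0.30. Whether GC content or length plays a part in the measured differences was not tested.

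**Figure D4:**
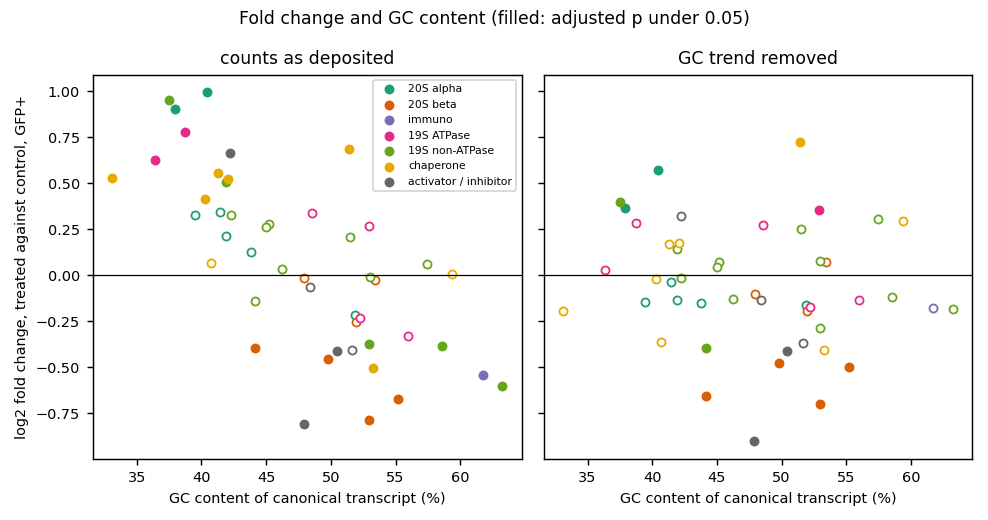
Log2 fold change in GFP-positive cells against the GC content (%) of the canonical transcript for the 47 genes, from the counts as deposited (left) and after removal of the GC trend (right). Filled points have an adjusted p under 0.05. The slope on the left (Spearman -0.74) is much flatter on the right (-0.24), and 4 beta subunits stay among the lower called genes.

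In GFP-negative cells, the remaining cells of the same cultures, 7 proteasome genes were higher after treatment and 2 lower, against 15.3% and 16.2% of all 15513 genes tested. The rises were in PSMA1, PSMC2, PSMD2, PSMD9, PSMD10, PSMD12 and PSMD13 and the falls in PSME3 and PSMG4. The median of the 47 genes was 0.22 and that of all genes -0.01. No beta subunit was called. The groups did not overlap for 17 genes (36.2%), against 46.6% of all genes, and 0 genes were DEGs, against 18.3% of all genes, with 17 at an unadjusted p under 0.05 and 10 higher and 2 lower calls in DESeq2. The counts were unstable: leaving out control library 1, whose proteasome transcripts were high, gave 15 higher and 1 lower, without control library 3 there were 6 and 3, without treated library 2 there were 6 and 1, without control library 2 or treated library 1 there were 1 and 0, and without treated library 3 there were 2 and 0. With all 12 libraries in the fit, 11 were higher and 2 lower. Removal of the GC trend gave 5 higher and 2 lower, against 2418 and 2457 of all 14864 genes. PSMA1, PSMC2, PSMD10 and PSMD12 then lost their calls. Only the call of PSMD9 was kept in all 15 other fits.

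PSMD9 was at 71.2, 57.7 and 44.1 CPM in control and 109, 96.8 and 133 CPM in treated GFP-negative libraries, a rise of 0.95 ± 0.21 with an adjusted p of 0.00742 in edgeR. PSMD12 had 56.6, 53.4 and 64.2 CPM and 96.8, 81.2 and 116 CPM (0.74 ± 0.17), and PSMC2 74.4, 51.8 and 58.0 CPM and 97.4, 78.6 and 133 CPM (0.72 ± 0.22). For these 3 genes all treated values lay above all controls. PSMD13, a lid subunit, rose by 0.73 ± 0.19. PSMD10 had 51.7, 50.02 and 52.6 CPM and 66.9, 75.2 and 85.7 CPM, and PSMG4 fell from 27.2, 18.4 and 16.4 CPM to 12.3, 13.1 and 13.0 CPM. Their log2 fold changes were 0.54 ± 0.16 and -0.72 ± 0.22. PSME3 fell from 223, 243 and 241 CPM to 165, 187 and 154 CPM, a log2 fold change of -0.50 ± 0.15 with an adjusted p of 0.0285 in edgeR.

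The catalytic beta subunits of GFP-negative cells showed no shift that could be detected. PSMB5 had 302, 256 and 216 CPM in controls and 225, 224 and 315 CPM in treated libraries. PSMB6 had 313, 255 and 207 CPM and 221, 213 and 316 CPM, and PSMB7 358, 283 and 237 CPM and 296, 298 and 411 CPM. The groups overlap in all of them, with log2 fold changes of -0.04 ± 0.19, -0.07 ± 0.21 and 0.17 ± 0.20. PSMB1, with 239, 149.5 and 122 CPM and 185, 196 and 289 CPM, had the highest estimate of the class (0.37 ± 0.26). PSMB3 had the lowest (-0.87 ± 0.34), at 5.12, 3.52 and 2.56 CPM and 1.90, 2.51 and 1.81 CPM. PSMB10 was at 46.7, 32.3 and 26.5 CPM and 27.9, 23.4 and 36.6 CPM and was not called (-0.29 ± 0.25). Its share of the sum with PSMB7 per length was 10.7% ± 0.82 (SD, n = 3) in control and 8.07% ± 0.68 in treated GFP-negative cells, with ranges of 10.1% to 11.6% and 7.32% to 8.67% that do not overlap.

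The genes that follow were not called in GFP-negative cells. PSMA5 had 141, 88.8 and 71.5 CPM in controls and 157, 144 and 207 CPM in treated libraries, which just missed the threshold (0.73 ± 0.25, adjusted p 0.0515 in edgeR) and passed it in DESeq2. PSMA3 had 74.0, 37.0 and 44.9 CPM and 64.6, 52.7 and 104 CPM (0.48 ± 0.31), and PSMA4, the lowest of its class, 173, 96.9 and 91.4 CPM and 107, 107 and 131 CPM (-0.09 ± 0.24). Control library 1 lay among or above the treated values of both. PSMC5 had 484, 301 and 238 CPM and 303, 308 and 284 CPM, and PSMD3 356, 348 and 341 CPM and 342, 333 and 379 CPM. The log2 fold changes were -0.21 ± 0.24 for PSMC5 and -0.01 ± 0.14 for PSMD3.

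ADRM1 was at 364, 309.6 and 261 CPM in control and 309.9, 269 and 430.5 CPM in treated GFP-negative cells (0.09 ± 0.21). PSMD4 had 352, 221 and 154 CPM and 265, 269 and 283 CPM (0.15 ± 0.26), and PSMD14 had 69.6, 51.7 and 57.1 CPM and 79.6, 76.1 and 104 CPM (0.52 ± 0.18). ADRM1 and PSMD4 overlapped between the groups, and for PSMD14 the treated libraries were the higher ones. Among the chaperones POMP had 92.8, 48.8 and 49.4 CPM and 103.4, 73.2 and 129.95 CPM, PSMG1 42.0, 30.6 and 25.1 CPM and 35.1, 35.8 and 41.9 CPM, and PSMG2 38.04, 23.6 and 18.2 CPM and 37.4, 24.0 and 40.6 CPM. PSMG3 had 46.2, 31.5 and 24.3 CPM and 34.0, 30.0 and 35.2 CPM, and PSMD5 1.31, 1.79 and 2.04 CPM and 1.51, 1.49 and 1.24 CPM. For each of these 5 chaperones the groups overlapped. The activators PSME1 and PSME2 had control values of 83.7, 65.6 and 61.1 CPM and 96.1, 67.8 and 56.2 CPM and treated values of 57.6, 54.0 and 67.8 CPM and 59.6, 56.0 and 66.7 CPM. PSME4 had 47.6, 49.0 and 63.3 CPM and 69.3, 71.2 and 74.8 CPM, and PSMF1 212, 185 and 184 CPM and 227, 227 and 229.9 CPM. PSME4 and PSMF1 lay higher in all treated libraries, with 0.41 ± 0.16 and 0.22 ± 0.14, but did not pass the test.

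PSMC2, PSMD9, PSMD10 and PSMD12 were called higher in both fractions, which is 33.3% of the genes called higher in GFP-positive and 57.1% of those in GFP-negative cells. Over all genes tested in both fractions these shares were 47.1% and 80.9%. PSME3 and PSMG4 were lower in both, which is 18.2% of the genes called lower in GFP-positive and 100% of those in GFP-negative cells, against 51.5% and 77.9% over all genes. PSMD2 was called lower in GFP-positive and higher in GFP-negative cells, as were 21 of all genes, and 22 showed the reverse. After removal of the GC trend PSMD9 and the gained PSMC4 were higher in both fractions, and PSME3 was lower in both. PSMC2 and PSMD10 were then called in neither fraction, PSMD12 in GFP-positive cells only, and PSMD2 and PSMG4 in GFP-negative cells only.

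The difference between the responses was tested as the interaction of treatment and sort fraction over 16226 genes, of which 2.19% passed, 0.968% with a higher and 1.22% with a lower response in GFP-positive cells. PSMD2, a large scaffold subunit of the cap that binds ubiquitin-like domains, was the 1 proteasome gene that passed. It had 385, 461 and 415 CPM in control and 290.2, 309 and 329 CPM in treated GFP-positive cells, and 519, 513 and 471 CPM and 631, 678 and 721 CPM in GFP-negative cells. Every treated library was thus below its controls in the GFP-positive and above them in the GFP-negative fraction. The interaction was -0.87 ± 0.18 on the log2 scale with an adjusted p of 0.0189 in edgeR, and 7 proteasome genes had an unadjusted p under 0.05. It passed in 17 of 20 other fits and missed the threshold without treated GFP-positive library 1 (adjusted p 0.123), without treated GFP-positive library 3 (0.0684) and without control GFP-negative library 2 (0.0511).

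Deviations of same-numbered GFP-positive and GFP-negative libraries were positively correlated in each pair, at 0.16 to 0.545. With the replicate number as a block 4 genes passed, ADRM1, PSMB5, PSMB7 and PSMD2, all lower, against 4.59% of all genes. Without the block the interactions of ADRM1, PSMB5 and PSMB7 were -0.78 ± 0.27, -0.84 ± 0.27 and -0.72 ± 0.26, with adjusted p of 0.149, 0.134 and 0.174 in edgeR. Of the 7 beta subunits 6 had a negative interaction, with a median of -0.51 against -0.05 over all genes. After removal of the GC trend together with the block PSMD2 alone passed.

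The sort fractions were compared as GFP-positive against GFP-negative cells. This comparison and that of treated cells share libraries with the treatment comparisons, so their values are set beside each other only. In control cells 45 of the 47 estimates were negative, with a median of -0.31 against -0.02 over all genes. Without the block 9 genes were lower and 0 higher, against 23.1% and 17.1% of all 15404 genes, and 6 genes (12.8%) did not overlap, against 53.2% of all genes. With the replicate block, used because same-numbered libraries deviated together, 22 were lower and 0 higher, against 27.7% and 23.9%. With the GC trend removed 3 were lower, and 8 with the block as well. Without control GFP-negative library 3, the library rich in blood transcripts, 20 were lower without a block. Without control GFP-positive library 1 there were 2, without any one of control GFP-positive libraries 2 and 3 or control GFP-negative library 1 there were 3, and without control GFP-negative library 2 there were 4.

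PSME1 and SEM1 were lower in all 15 other fits. SEM1 had 32.9, 22.4 and 18.8 CPM in control GFP-positive and 79.9, 41.9 and 43.8 CPM in control GFP-negative cells, a difference of -1.26 ± 0.28 with an adjusted p of 0.00559 in edgeR. For PSME1, with the values given above, the difference was -0.88 ± 0.17 (0.00199 in edgeR). Neither gene overlapped between the fractions. PSMB10 was also lower, with -0.69 ± 0.22. PSMB3 had the lowest estimate, -1.58 ± 0.47, but rests on few counts. PSMB3 and SEM1 were the 2 genes past a 2-fold difference, which 15.3% of all genes showed in this direction.

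The same comparison was made in treated cells. Without the block 25 of the 47 genes were lower in GFP-positive cells and 0 higher, against 24.9% in each direction among 15416 genes. The median was -0.43 against 0.05 over all genes, 43 estimates were negative, and 28 genes (59.6%) did not overlap, against 57.8%. Of the 7 beta subunits 6 were lower, with a median of -0.80. The 4 genes past a 2-fold difference, against 13.7% of all genes, were ADRM1 (-1.12 ± 0.17), PSMD2 (-1.10 ± 0.13), SEM1 (-1.04 ± 0.23) and PSME1 (-1.001 ± 0.17). Without TMM scaling, which moved the median of all genes from 0.05 to 0.22, 16 were lower, 1 was higher and 0 passed the 2-fold minimum. Without treated GFP-positive library 1 there were 15 lower and without treated GFP-negative library 1 there were 16, and 13 of the 25 were lower in all 15 other fits. With the replicate block 27 were lower and 0 higher, against 4456 and 4690 of all 15416 genes.

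**Figure D5:**
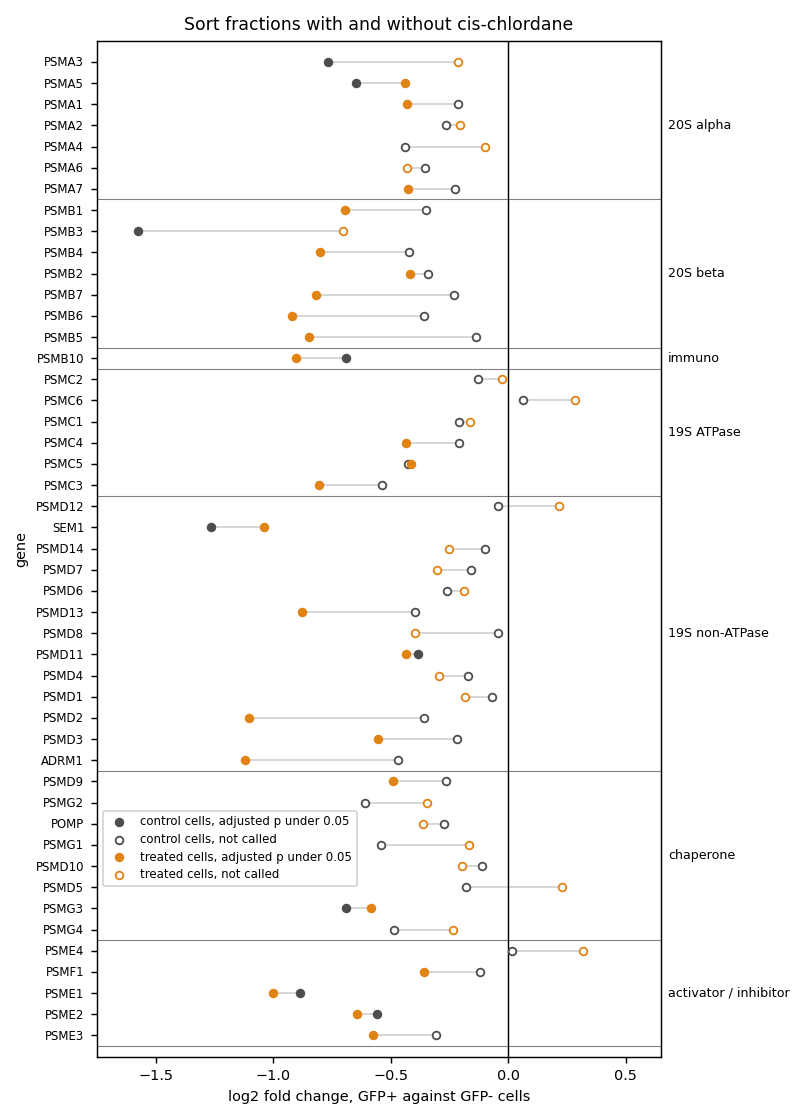
Log2 fold change of GFP-positive against GFP-negative cells for the 47 genes in control (grey) and treated (orange) cultures. Filled points have an adjusted p under 0.05 without the replicate block. Most points lie left of 0, with medians of -0.31 in control and -0.43 in treated cells.

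Genes around the proteasome were examined from lists of its pathway in GFP-positive cells, where 26.5% of all genes were called higher and 24.4% lower. Of 6 genes for ubiquitin and its E1 enzymes 3 rose and 1 fell. UBA1, the main E1 enzyme, had 1879, 2616 and 1949 CPM in control and 887, 980.1 and 818 CPM in treated libraries, and the second E1 enzyme UBA6 had 21.7, 20.9 and 28.2 CPM and 47.8, 45.1 and 58.0 CPM. They moved in opposite directions without overlap, with log2 fold changes of -1.20 ± 0.16 and 1.16 ± 0.18. Of 11 proteasome-associated factors 6 rose and 1 fell. ZFAND2A, a stress-induced protein that binds the cap, had 21.7, 16.1 and 18.5 CPM and 43.4, 44.2 and 60.03 CPM (1.46 ± 0.19). UCHL5, the deubiquitinase docked by ADRM1, had 15.4, 12.9 and 16.7 CPM and 24.6, 28.8 and 34.1 CPM (1.03 ± 0.19). Both were separated from their controls. Of 9 shuttle factors and partners of the unfoldase VCP, 0 rose and 1 fell.

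Of 8 genes around the factor NFE2L1 5 rose and 1 fell. NFE2L1 itself was at 539, 536 and 518 CPM in control and 815, 724 and 708 CPM in treated GFP-positive cells (0.56 ± 0.15). NFE2L2, the factor of the antioxidant response, was at 20.03, 16.4 and 19.4 CPM and 59.4, 59.4 and 80.1 CPM (1.90 ± 0.18). Their small partners MAFF and MAFG rose by 1.45 ± 0.17 and 1.01 ± 0.18. In GFP-negative cells the corresponding counts of rises were 2 of 6, 4 of 11, 0 of 9 and 4 of 8, with 1 fall, in UBA1, against 15.3% of all genes called higher and 16.2% lower. The medians of the proteasome genes themselves were 0.06 in GFP-positive and 0.22 in GFP-negative cells.

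Among 17 genes of MHC class I presentation and interferon signalling, which are often co-regulated with the immunoproteasome, 14 were tested in GFP-positive cells. Of these 10 rose and 1 fell, against 26.5% and 24.4% of all genes. The gene that fell was IRF9 (-0.91 ± 0.20). Of the 10 that rose, B2M, HLA-B, HLA-C and TAP2 had 53.7% to 97.8% of their exon windows repeated on alternate contigs. IRF1, an interferon-induced factor, was at 2.24, 1.65 and 1.504 CPM in control and 20.98, 17.2 and 27.4 CPM in treated libraries (3.68 ± 0.25). CALR, a chaperone of the endoplasmic reticulum, was at 506, 558 and 539 CPM and 1233, 1093 and 1212 CPM (1.21 ± 0.16). PSMB10, PSME1 and PSME2 had negative estimates in the same cells, as given above. TAP2 (1.35 ± 0.46) reached no more than 1.35 CPM. In GFP-negative cells 15 genes of this list were tested, and 5 rose and 0 fell, against 15.3% and 16.2% of all genes.

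Promoter sequence is shown because proteasome genes are known targets of NFE2L1, which binds the antioxidant response element. The motif TGACNNNGC, the core of that element, was searched on both strands in the 250 bases before the RefSeq start of 45 proteasome genes with an entry (GRCh38.p14). It was found in 13 of them (28.9%) and in 11% of 27305 promoters of the same length. Of the 12 genes that rose in GFP-positive cells 6 held it, and of 9 that fell with an entry 3 did. Among these, PSMD12, PSMD9 and PSME2 kept their call after removal of the GC trend. Shares among all genes called higher or lower were not taken, and a link between motif and response was not tested. The other genes with a match were PSMB3, PSMD5 and PSME1, which were not called, and PSMB9, which was not tested. Their stretches are left out. The stretches of the called genes are printed with their gene strand 5′ to 3′, the motif or its reverse complement in capitals. The first 6 rose and the last 3 fell.
PSMD12 (chr17:67366718-67366758, minus strand): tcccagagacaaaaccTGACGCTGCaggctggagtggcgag
PSMD9 (chr12:121888672-121888712, plus strand): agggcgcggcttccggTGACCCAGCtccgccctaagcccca
PSMG1 (chr21:39183610-39183650, minus strand): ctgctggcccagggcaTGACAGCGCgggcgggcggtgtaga
PSMG2 (chr18:12658683-12658723, plus strand): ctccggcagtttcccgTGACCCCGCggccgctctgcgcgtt
PSME4 (chr2:53971003-53971043, minus strand): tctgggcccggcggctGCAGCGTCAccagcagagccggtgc
SEM1 (chr7:96503662-96503702, minus strand): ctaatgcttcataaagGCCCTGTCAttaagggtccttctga
ADRM1 (chr20:62302743-62302783, plus strand): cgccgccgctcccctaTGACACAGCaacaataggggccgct
PSMD3 (chr17:39980754-39980794, plus strand): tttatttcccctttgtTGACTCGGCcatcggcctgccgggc
PSME2 (chr14:24146761-24146801, minus strand): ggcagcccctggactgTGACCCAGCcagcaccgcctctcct
The match in PSME4 and SEM1 is on the reverse strand, and PSMD9 has 2 matches, of which the one nearer to the start is printed. Other motifs were CCAAT, in 42.2% of the proteasome promoters and 32.9% of all, CCGGAAG, the core of ETS sites, in 24.4% and 8.79%, TTCNNGAA, from the heat shock element, in 6.67% and 6.72%, and TGATGNAA, from the C/EBP-ATF element, in 0% and 3.26%, each on both strands. A match describes letters only.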

How the data were processed

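RNA of 12 sorted samples was sequenced as single-end 100-base reads. The authors concatenated lanes, mapped reads to hg38 with HISAT2 and the Ensembl release 103 annotation, and deposited raw counts per gene, which per the labels came from featureCounts. The contents of the index, the strand setting of the counting and the handling of reads with several positions are not given in the sources used here. Of the count columns 0 were left unused. Groups were taken from the sample labels.

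Counts were tested with edgeR 4.0.16 in R 4.3.3 (TMM scaling, filterByExpr with a minimum count of 10 and a minimum total of 15, quasi-likelihood F-test, Benjamini-Hochberg adjustment over all genes tested). A gene was called at an adjusted p under 0.05 and was a DEG at a fold change of at least 2 as well. An exact permutation test with 3 libraries per group cannot give a two-sided p under 0.1, so none was run. The tests were the treatment in each sort fraction, the sort fraction in control and in treated cells, and the interaction. The authors used DESeq2. The alternatives were DESeq2 1.42.0, scaling by library size alone or by RLE, the omission of the filter or its replacement by 10 or more counts in each library, the replicate number as a block, a fit of all 12 libraries, the omission of each library, and a loess fit (span 0.5) that removed the trend with GC content in each library, also with the block. The last combination was chosen after seeing the data. The main fit of each comparison, but not the alternatives, was also run on simulated counts with known fold changes. These counts held no pairing, GC trend or library-wide shift, so that run cannot assess their effect.

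Deviations from the group means over 13368 genes correlated between same-numbered sort fractions at 0.449, 0.16 and 0.473 in control cells. In treated cells the correlations were 0.201, 0.281 and 0.545. These libraries were therefore taken as paired in the alternative fits with the replicate block. The main fits of the sort fractions and of the interaction were run without the block and did not use the pairing. Sort fractions of different number correlated at -0.495 to 0.0977 in control and at -0.44 to 0.28 in treated cells, so the pairing was not equally clear throughout. Between control and treated libraries of the same number the values were -0.0368, 0.18 and 0.233 in GFP-positive and 0.0608, 0.251 and -0.0826 in GFP-negative cells. With different numbers they were -0.275 to 0.121 and -0.193 to 0.14. Control and treated libraries were not taken as paired.

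The proteasome genes and all lists were chosen with earlier results of these data known. Named genes are the catalytic and immunoproteasome subunits, ubiquitin receptors, PSMD14, chaperones, activators and PSMF1, the extremes of each class in each treatment comparison, genes past the interaction test, and up to 3 DEGs per pathway list and direction in GFP-positive cells. Other genes were named after their values were seen. Positions, lengths and GC content came from GENCODE release 44, which matched 25763 of the 28278 symbols and 51 of the 51 proteasome genes. Repeats were searched as windows of 100 bases in hg38. Promoters came from RefSeq. Plots used Python 3.11.15 with matplotlib 3.10.9. Floors cover counting error only.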

Additional observations from a re-analysis of the deposited data

Results flagged for a closer look

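PSMD2 differed in its response between the sort fractions. The interaction of treatment and sort fraction was -0.87 on the log2 scale, and the 3 treated libraries lay below the 3 controls in GFP-positive and above them in GFP-negative cells. No explanation was tested.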

How the results depend on the processing

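With library size alone 5 proteasome genes were lower in treated GFP-positive cells and 3 passed a 2-fold change, and in treated cells by sort fraction 16 were lower, 1 higher and 0 past 2-fold. A minimum of 10 counts in every library gave 1 past 2-fold in treated GFP-positive cells. Removal of the GC trend gave 5 higher and 7 lower in GFP-positive cells with or without the replicate block, 3 lower by sort fraction in controls, and 1 past 2-fold in treated GFP-negative cells and in treated cells by sort fraction, also with the block. With GC trend and block together 4 were higher and 1 lower in treated GFP-negative cells. Removal of the trend reversed POMP (-0.19, and -0.20 with the block) and PSMD10 (-0.0228, and -0.0278 with the block). A fit of all 12 libraries gave 6 higher in treated GFP-positive, 11 higher in treated GFP-negative and 5 lower by sort fraction in control cells. The replicate block gave 22 lower by sort fraction in controls, 4 lower for the interaction and 1 lower in treated GFP-negative cells.

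Leaving out 1 library gave 6 to 14 higher, 4 to 12 lower and 0 to 2 past 2-fold in treated GFP-positive cells, with medians of 0.03 to 0.13. In treated GFP-negative cells it gave 1 to 15 higher, 0 to 3 lower and 0 to 3 past 2-fold, with medians of 0.10 to 0.41. By sort fraction it gave 2 to 20 lower and 1 to 2 past 2-fold in control (medians -0.40 to -0.13), and 15 to 26 lower, 0 to 1 higher and 1 to 7 past 2-fold in treated cells (medians -0.49 to -0.35). The interaction gave 0 to 1 lower, with medians of -0.41 to 0.01. The cause of these moves was not tested. Of 300 summary values 239 stayed within 1.5 times or within the replicate spread. Of the values for single genes or lists 694 kept direction and call, 129 lost the call, 3 gained it, 4 reversed and 3 moved. For genes at few counts, such as PSMD5, depth limits what could be detected. The low counts of PSMB3 are uncertain because of its repeated windows, as given above.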
